A study of Homo sapiens with 10 samples.

Results

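K562 cells treated with a CDK9 inhibitor for 4 h were compared with K562 cells kept in DMSO for the same time. K562 is an established human chronic myeloid leukaemia line with erythroid features that carries the BCR-ABL1 fusion kinase. Every library came from cells pulsed for 12 h with 30 µM 4-thiouridine, which cells build into new RNA, in medium renewed every 3 h. The cells were then washed and kept in 3 mM uridine. The AZ-5576 library is from cells that also received 1 µM AZ-5576, an inhibitor of CDK9, for 4 h, and the DMSO library is from cells that received DMSO in its place for 4 h. A shared library was taken at 0 h, before any inhibitor, and the series also holds AZ-5576 and DMSO libraries at 2 and 8 h and an arm treated with 1 µM JQ1, an inhibitor of BET bromodomains. RNA of fly S2 cells had been added at 5% to the purified RNA, so the fly reads scale each library to its RNA mass and not to its cell number. Each condition is 1 library, which leaves no spread between replicates, and in such bulk RNA a loss of cells of a kind and less RNA per cell cannot be told apart.

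The compared genes were all those with a mean of at least 20 total reads over the 10 libraries, 11797 of the 59204 genes listed (30316 had a read). They held 99.6% of the human reads. The rule used the mean count, not the difference at 4 h. Genes just inside the minimum (465 genes with means of 20 to 25 reads) had a median log2 ratio of −0.52, and 596 genes just outside it (means of 15 to 20 reads) had −0.57. For each gene the human reads were divided by the fly reads of the same library. Reads named nascent in the deposited tables were taken as RNA labelled during the pulse, and the remaining reads as unlabelled RNA, which holds RNA made during the chase along with older RNA that carried no readable label. A gene was called lower or higher when the AZ-5576 and DMSO values were at least 2-fold apart, and no test stands behind such a call. Intervals are exact 95% intervals and cover counting error only, since the reads carry no molecular identifiers.

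CDK9 with a cyclin T partner forms P-TEFb, the kinase that phosphorylates the pausing factors DSIF and NELF and the tail of RNA polymerase II, and so lets paused polymerase move into the gene. Most P-TEFb is held inactive in a particle built on the 7SK RNA with HEXIM1. When CDK9 is blocked, polymerase stays near the promoter, new mRNA is not made, and each mRNA pool then shrinks at the pace of its own decay. Leukaemia cells are known to lean on short-lived mRNAs such as those of MYC and MCL1, which is why CDK9 inhibitors have been studied in blood cancers.

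The AZ-5576 library held 10293371 human and 1468219 fly reads, and the DMSO library held 12130418 human and 1368241 fly reads. All 14 K562 markers had reads in both libraries, with 152404 reads in AZ-5576 and 145964 in DMSO. Most of that sum came from the globin genes HBG1 (65695 reads in AZ-5576, 63785 in DMSO) and HBG2 (53416 and 48697). BCR had only 17 reads in AZ-5576 and 25 in DMSO. The 12 markers of other cells summed to 2341 reads in AZ-5576 and 3244 in DMSO. Most of these came from the keratin gene KRT19 (1469 reads in AZ-5576, 2459 in DMSO), and the B-cell and T-cell genes MS4A1 and CD8A had 0 reads in both. Their part in the results was not tested. In fly genes the 4 h libraries did not stand apart, with fly TMM scale factors of 1.02 for AZ-5576 and 1.01 for DMSO. Some human genes did part the libraries. In the processed pseudogenes RPS24P6, RPL38P5 and RPL31P31 the DMSO 4 h library and the 8 h libraries of every arm lay at least 2-fold away from the other 6 libraries, AZ-5576 at 4 h among them. No protein-coding gene and no fly gene did so at 2-fold. With a gap of any size these libraries lay below the other 6 for 114 of 9823 protein-coding genes and 45 of 968 pseudogenes. The same held for 19 of 1006 other human genes and 35 of 4980 fly genes. They lay above for 0, 9, 2 and 15 genes of these classes, in that order. The AZ-5576 and DMSO libraries at 4 h lie on opposite sides of this split. For no gene, therefore, can the split be told apart from the inhibitor in the ratio at 4 h. The total ratios of RPS24P6 and RPL38P5, which were at least 2-fold apart, are given apart below.

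Human reads per fly read were 7.01 in AZ-5576 and 8.87 in DMSO. The gap was in unlabelled RNA, with 5.00 reads per fly read in AZ-5576 and 7.01 in DMSO. Labelled RNA ran slightly the other way, with 2.01 reads per fly read in AZ-5576 and 1.85 in DMSO. As a result labelled reads made up 28.7% of the AZ-5576 library and 20.9% of the DMSO library, against 32.0% at 0 h. The same split held gene by gene. The median gene had 63.0% of its DMSO level in total RNA (log2 ratio −0.67), 45.0% in unlabelled RNA (−1.15) and 109% in labelled RNA (0.13).

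In total RNA 3859 genes were at least 2-fold lower in AZ-5576, or 32.7% of those tested, and 122 genes, or 1.03%, were at least 2-fold higher. With TMM scaling over human genes these counts were 1456 and 497. The decrease reached 4-fold in 823 genes, 8-fold in 204 and 16-fold in 64. Unlabelled RNA was lower for 6653 genes (56.4%) and higher for 140 (1.19%). Labelled RNA was lower for 671 genes (5.69%) and higher for 1038 (8.8%). That balance depends on the setting, with 317 lower and 3351 higher under TMM over human genes, 884 and 471 against the mean of DMSO at 2 and 8 h, and 2859 and 347 against 0 h. Of the 3859 genes with less total RNA, 3166 (82.0%) had labelled RNA within 2-fold of DMSO. In the 204 genes with at least 8-fold less total RNA, 143 (70.1%) also had at least 2-fold less labelled RNA. Labelled reads are a part of total reads, so this share is partly set by choosing genes with deep losses of total RNA.

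**Figure D1:**
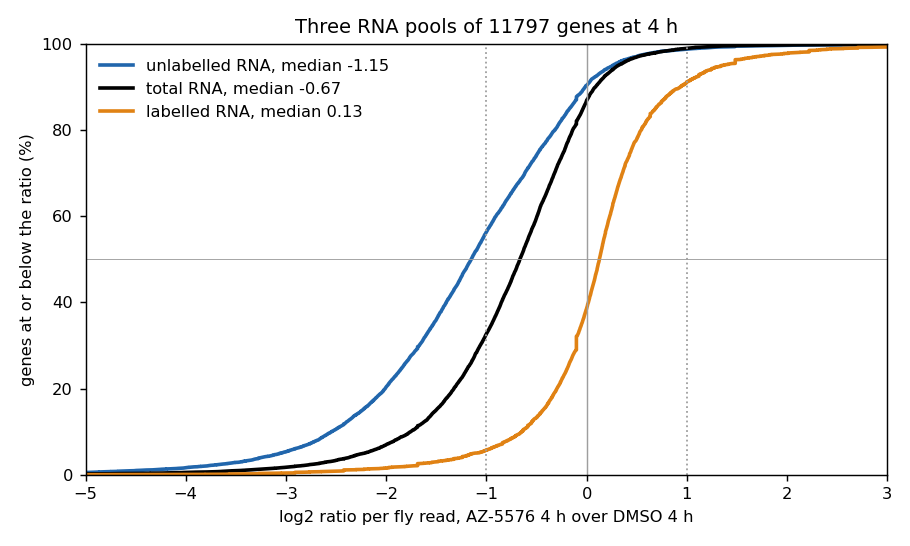
Cumulative share of the 11797 genes (vertical axis, %) by log2 ratio per fly read of AZ-5576 over DMSO at 4 h (horizontal axis), 1 line for each RNA pool, with dotted lines at 2-fold. The unlabelled curve lies furthest to the left (median −1.15), total RNA between (−0.67), and labelled RNA near 0 (0.13).

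The labelled share could be read per gene for 6733 genes with at least 100 total reads in both libraries. Its median was 45.0% in AZ-5576 and 24.1% in DMSO, against 51.1% at 0 h. The share was higher in AZ-5576, with exact intervals apart, for 5328 genes (79.1%), and lower for 19 (0.282%). The median share in AZ-5576 was thus nearer to that at 0 h than the share in DMSO was. Against 0 h the median log2 ratio of total RNA was −0.36 for AZ-5576 and 0.31 for DMSO, so part of the difference between the arms is an increase over 0 h in the DMSO library.

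The classes of transcript differed in how much was lost. Nuclear protein-coding genes (9812) had a median log2 ratio of −0.72 with 34.7% called lower. Long noncoding genes (845) were close to them, at −0.69 with 35.3% lower. Pseudogenes (968) had a median of −0.11 with 11.7% lower. The 23 mitochondrially encoded genes, which are transcribed by another polymerase that does not use P-TEFb, had a median of 0.11 and 0 genes called lower.

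Among the genes with the lowest ratios of total RNA, DUSP5 (chr10:110497838-110511544 on the plus strand, GRCh38), a nuclear phosphatase that switches off ERK, had 0 reads in AZ-5576 and 110 reads in DMSO. Counting the AZ-5576 library at a floor of 3 reads, it was at least 39.3-fold lower. SOCS1 (chr16:11254405-11256200, minus strand), a brake on JAK-STAT signalling named here after its values were seen, had 0 reads in AZ-5576 and 72 in DMSO, at least 25.8-fold lower at the same floor. Both transcripts were thus below what the AZ-5576 library could count.

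NFKBIA (chr14:35401511-35404749, minus strand) encodes IκBα, the inhibitor that NF-kB induces to end its own activity. It had 9 reads in AZ-5576 and 330 in DMSO, so 2.54% of the DMSO level remained (interval 1.15% to 4.88%). IER5 (chr1:181088712-181092899, plus strand), an immediate-early gene linked to the heat shock response, had 49 reads in AZ-5576 and 1357 in DMSO, or 3.37% (2.48% to 4.47%). It is the gene with the most DMSO reads among the 12 lowest, so its value is the most exact of them. MYC, the growth-promoting transcription factor, had 16 reads in AZ-5576 and 444 in DMSO, or 3.36% (1.90% to 5.51%).

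CITED2, a CBP and p300 binding protein needed in blood stem cells, had 4 reads in AZ-5576 and 166 in DMSO, or 2.25% (0.605% to 5.86%). HILPDA, a hypoxia-induced lipid droplet protein, had 6 reads in AZ-5576 and 241 in DMSO, or 2.32% (0.843% to 5.12%). BAMBI, a decoy receptor that dampens TGF-β signalling, had 4 reads in AZ-5576 and 112 in DMSO, or 3.33% (0.891% to 8.76%). These 3 are inducible genes of the hypoxia and TGF-β pathways. MAD2L1BP, which helps to take apart the spindle checkpoint complex, had 35 reads in AZ-5576 and 893 in DMSO, or 3.65%. The remaining 4 of the 12 lowest genes were C15orf39 (2 reads in AZ-5576, 160 in DMSO), BLOC1S3 (2 and 115), PARS2 (6 and 156) and C1orf74 (6 and 152).

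**Figure D2:**
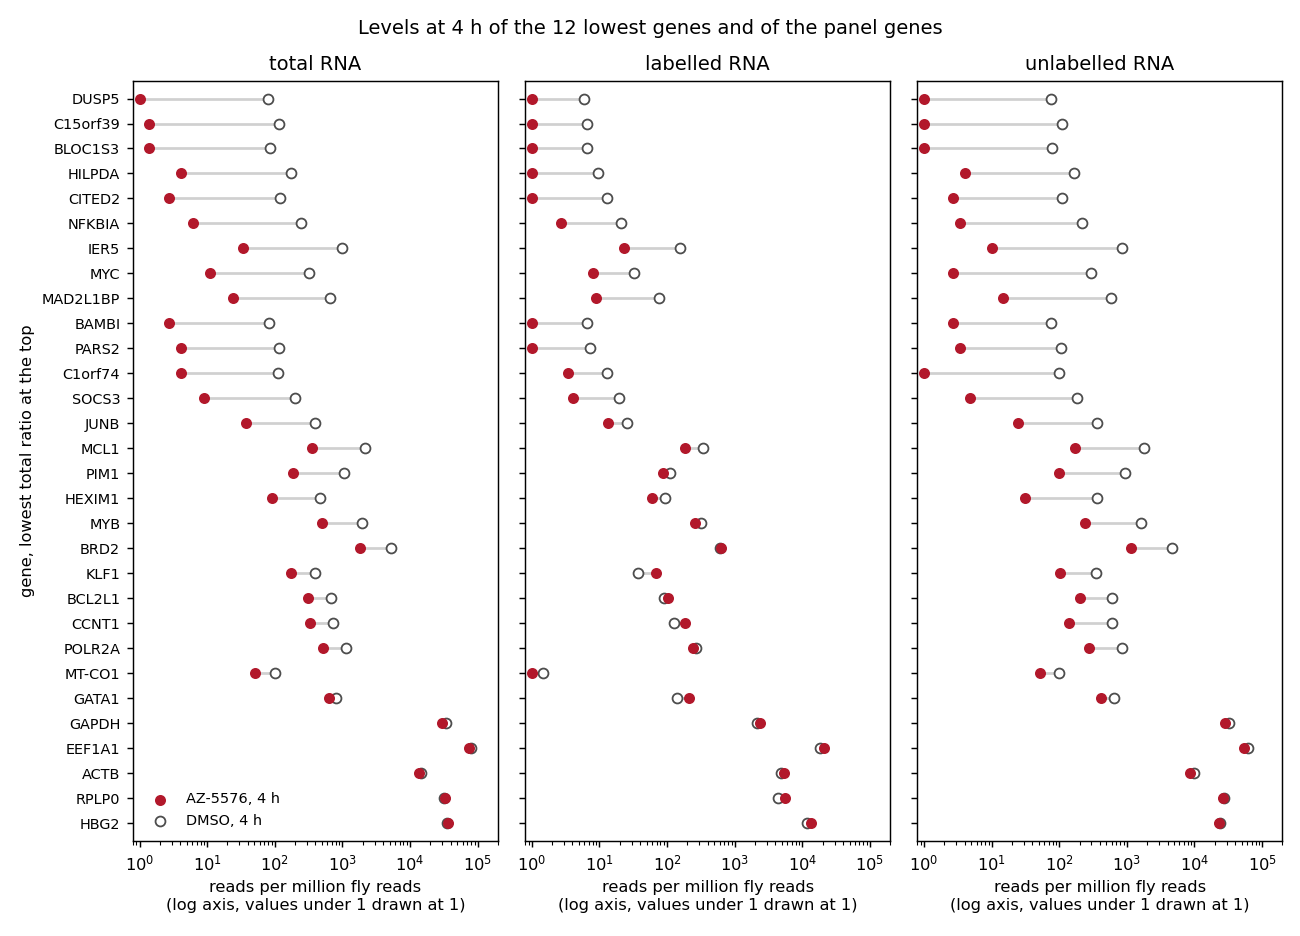
Levels at 4 h in AZ-5576 (filled red) and DMSO (open) in reads per 1000000 fly reads on a log axis, for total, labelled and unlabelled RNA, with genes ordered by their total ratio from the lowest at the top. The gap between the points is widest in unlabelled RNA, and at the bottom HBG2 and RPLP0 have both points together (102% and 101% of the DMSO level in total RNA).

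The reads of these genes lie at their 3′ ends, where AU-rich elements that speed up mRNA decay are found. The pentamer ATTTA is the core of such elements. The windows below are stretches of at most 30 bases with the most ATTTA in the 3′ UTRs of 6 of the named genes (GENCODE v29, GRCh38), shown as examples picked for their ATTTA runs, with ATTTA in capitals.
IER5: ttATTTATTTATTTATTTA
PIM1: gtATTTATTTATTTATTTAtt
SOCS3: atATTTAtATTTA
IER3: atATTTAtatgtATTTA
BAMBI: tgATTTAttgtaaagATTTA
MCL1: taATTTAactggtgaaATTTA
They lie at chr1:181092453-181092471 (IER5, plus strand), chr6:37174991-37175011 (PIM1, plus), chr17:78356838-78356850 (SOCS3, minus), chr6:30743655-30743671 (IER3, minus), chr10:28682723-28682742 (BAMBI, plus) and chr1:150576222-150576242 (MCL1, minus). The UTRs of IER5 and MCL1 hold 10 ATTTA each, that of IER3 holds 6, those of PIM1 and BAMBI 5 each, and that of SOCS3 4. Low genes need not hold them, since the UTRs of DUSP5, HILPDA, MAD2L1BP and DDIT4 hold 0. HBG2, the fetal globin gene whose total RNA was at 102% of DMSO, also has 0, in its UTR of 87 bases. A run of these letters is a description of the window and not evidence that the element is used.

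Labelled RNA gave a shorter list of losses. MAD2L1BP had 13 labelled reads in AZ-5576 and 106 in DMSO, 11.4% of the DMSO level (5.89% to 20.4%). IER5 had 34 labelled reads in AZ-5576 and 213 in DMSO, or 14.9% (10.0% to 21.4%). JUN, the founding AP-1 subunit, had 17 in AZ-5576 and 103 in DMSO, or 15.4% (8.63% to 25.8%). For these genes RNA with label, and not only unlabelled RNA, was scarcer in AZ-5576. PPP1R10, which encodes the phosphatase subunit PNUTS that acts on polymerase II, had 34 labelled reads in AZ-5576 and 178 in DMSO (17.8%). The zinc finger gene ZSCAN9 had 32 in AZ-5576 and 142 in DMSO.

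MYC showed how the pools part. Its unlabelled RNA was 4 reads in AZ-5576 and 399 in DMSO, or 0.934% of the DMSO level. Its labelled RNA was 12 reads in AZ-5576 and 45 in DMSO, or 24.9% (12.0% to 47.8%). So 75% of the few MYC reads in AZ-5576 carried label, against 10.1% in DMSO.

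At the other end of labelled RNA, ZFP36L1, an RNA-binding protein that itself destabilises AU-rich mRNAs, had 119 labelled reads in AZ-5576 and 36 in DMSO, or 308% of the DMSO level (211% to 461%). Its total RNA was nonetheless 58.0% of the DMSO level. RNF4, a SUMO-targeted ubiquitin ligase, had 149 labelled reads in AZ-5576 and 54 in DMSO, or 257% (187% to 358%). FAM229A had 114 in AZ-5576 and 33 in DMSO, or 322% (217% to 490%). The top 2 of this list were the pseudogenes RPL35AP33 (391 and 88 labelled reads in AZ-5576 and DMSO) and RPL31P31 (264 and 75). RPL31P31 is among the pseudogenes that parted the libraries, so its ratio cannot be told apart from that split.

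In BCR-ABL1 cells the transcription factor STAT5 is held active, and its targets include feedback inhibitors (SOCS genes and CISH) and the PIM survival kinases. Of the 8 tested members of this group 6 were lower (75%, against 32.7% of all genes) and 0 higher. The group's median log2 ratio was −2.93 in total RNA, against −0.67 over all genes. SOCS3 had 13 reads in AZ-5576 and 276 in DMSO, or 4.39% (2.31% to 7.63%). CISH had 20 reads in AZ-5576 and 337 in DMSO, or 5.53% (3.34% to 8.68%). PIM3 had 187 reads in AZ-5576 and 1781 in DMSO (9.78%). PIM1 had 271 reads in AZ-5576 and 1440 in DMSO (17.5%), while its labelled RNA stood at 126 reads in AZ-5576 and 152 in DMSO. The kinases differed, since PIM2 kept 70.6% of the DMSO level with 2221 reads in AZ-5576 and 2931 in DMSO. ABL1, whose 3′ end is also the 3′ end of the BCR-ABL1 transcript, had 307 reads in AZ-5576 and 1546 in DMSO, or 18.5% (16.3% to 20.9%).

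The promoter of CISH is shown because it holds an unusual number of the letters that STAT dimers bind, TTCNNNGAA. The sequence runs from 250 bases before to 50 bases after the start in RefSeq (GRCh38.p14, chr3:50611725-50612024, minus strand), with the matches in capitals.
CISH: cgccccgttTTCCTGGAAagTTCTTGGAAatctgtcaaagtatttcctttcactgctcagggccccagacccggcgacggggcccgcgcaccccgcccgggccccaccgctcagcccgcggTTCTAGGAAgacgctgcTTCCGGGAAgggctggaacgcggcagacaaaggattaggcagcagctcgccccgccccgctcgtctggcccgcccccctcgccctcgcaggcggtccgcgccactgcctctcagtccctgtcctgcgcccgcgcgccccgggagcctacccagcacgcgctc
The motif reads the same on both strands, and its 4 matches begin 241, 230, 129 and 112 bases before the start. Of the 8104 tested protein-coding genes matched to a promoter in that table, 497 (6.13%) hold at least 1 match in this window and 3 (0.0370%) hold at least 4. In the STAT5 group 2 of 7 matched promoters hold at least 1. A match is not a sign of binding, and its relation to the loss at 4 h was not tested.

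Other groups of inducible genes were below the median of all genes too. The share called lower over all genes was 32.7%. Among NF-kB inhibitors and subunits 7 of 8 were lower and the median was −1.52. Among AP-1 subunits 7 of 11 were lower, with a median of −2.14. JUNB had 56 reads in AZ-5576 and 535 in DMSO, or 9.75% (7.27% to 12.9%). FOSL1 had 25 reads in AZ-5576 and 254 in DMSO (9.17%). FOS itself was above DMSO, with a log2 ratio of 0.20. Of 10 EGR, IER and other immediate-early genes 8 were lower, with a median of −2.56. CSRNP1 had 21 reads in AZ-5576 and 431 in DMSO (4.54%). IER3, a survival factor, had 44 in AZ-5576 and 821 in DMSO (4.99%). IER2 had 454 in AZ-5576 and 2790 in DMSO (15.2%). No member of these groups was called higher.

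Growth regulators and feedback genes were low too, beside 32.7% called lower over all genes. Of 11 GADD45, BTG and SERTAD genes, several of which restrain the cell cycle or respond to damage, 10 were lower and 0 higher, with a median of −2.95. SERTAD1, a cell cycle regulator that binds CDK4, had 22 reads in AZ-5576 and 341 in DMSO (6.01%). BTG1, an antiproliferative gene, had 37 in AZ-5576 and 269 in DMSO (12.8%). Of 9 DUSP and Sprouty genes that damp ERK signalling 6 were lower, with a median of −2.38. Of 8 ID and SMAD feedback genes 7 were lower, with a median of −2.21. ID2 had 11 reads in AZ-5576 and 128 in DMSO (8.01%).

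Stress response genes differed among themselves. In the ATF4 group of the integrated stress response 10 of 18 were lower (55.6%, against 32.7% of all genes). The median was −1.12. DDIT4, an inhibitor of mTORC1, had 18 reads in AZ-5576 and 433 in DMSO (3.87%). DDIT3, the transcription factor CHOP, had 66 in AZ-5576 and 969 in DMSO (6.35%). ATF4 itself had 5830 in AZ-5576 and 12648 in DMSO, or 43.0%, with labelled RNA at 98.1%. Of 18 heat shock chaperones 4 were lower (22.2%) and the median of −0.64 was close to that of all genes. DNAJB1, the inducible partner of HSP70, was the lowest of them with 115 reads in AZ-5576 and 1528 in DMSO, or 7.01% (5.75% to 8.48%).

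MCL1, the short-lived survival protein of the BCL2 family, had 522 reads in AZ-5576 and 2945 in DMSO, or 16.5% (15.0% to 18.1%). Its labelled RNA was 53.9% of the DMSO level (270 reads in AZ-5576, 467 in DMSO) and its unlabelled RNA 9.48% (252 and 2478). Most of the family was nearer to DMSO than MCL1. Of 14 members 4 were lower (28.6%, against 32.7% of all genes), with a median of −0.52, against −0.67 over all genes. The proapoptotic gene BBC3, which encodes PUMA, was lower than MCL1 at 14.6%, with 106 reads in AZ-5576 and 676 in DMSO. BCL2L1, which encodes BCL-XL, kept 44.8% (453 reads in AZ-5576, 942 in DMSO). In the MYC and MAX network 5 of 11 were lower, with a median of −0.76, near that of all genes.

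Of 22 tested transcription factors of erythroid and leukaemia cells 11 were lower and 0 higher. That is 50%, against 32.7% of all genes, and their median was −0.999. CEBPB had 89 reads in AZ-5576 and 833 in DMSO (9.96%). GATA2, a factor of early progenitors, had 356 in AZ-5576 and 1490 in DMSO (22.3%). GATA1, which takes over from GATA2 as erythroid cells mature, kept 80.1% with 933 reads in AZ-5576 and 1086 in DMSO. MYB, a progenitor factor, had 726 in AZ-5576 and 2647 in DMSO, or 25.6% (23.5% to 27.8%). KLF1, which drives adult globin genes, had 251 in AZ-5576 and 536 in DMSO (43.6%). Its labelled RNA ran the other way, with 102 reads in AZ-5576 and 51 in DMSO, or 186% (132% to 266%).

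The globin mRNAs stayed near their DMSO level. Of 9 globin genes 0 were lower and 1 was higher, with a median of 0.03. HBG2 had 53416 reads in AZ-5576 and 48697 in DMSO, or 102% (101% to 103%). Among haem synthesis genes 1 of 11 was lower, with a median of −0.43. Iron uptake and storage genes had 4 of 10 lower and a median of −0.69, close to the 32.7% and −0.67 of all genes. The transferrin receptor gene TFRC, whose mRNA is cut when iron is plentiful, had 733 reads in AZ-5576 and 1877 in DMSO (36.4%).

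The machinery that CDK9 belongs to was lower too. CDK9 itself had too few reads to be tested. Of 12 genes of P-TEFb, the 7SK particle and the super elongation complex 7 were lower and 0 higher. That is 58.3%, against 32.7% of all genes, and their median was −1.25. HEXIM1, the inhibitor of P-TEFb, had 135 reads in AZ-5576 and 630 in DMSO, or 20.0% (16.5% to 24.1%). MEPCE, the capping enzyme of 7SK, had 195 in AZ-5576 and 819 in DMSO (22.2%). CCNT1, the cyclin T1 partner of CDK9, kept 45.2% (483 reads in AZ-5576, 996 in DMSO), with labelled RNA at 147%. For the inhibitor and the cyclin alike, what was left was largely labelled, 65.9% of HEXIM1 reads and 56.9% of CCNT1 reads in AZ-5576, against 20.6% and 17.5% in DMSO.

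Pausing and elongation factors had 9 of 19 lower (47.4%, median −0.99), and other transcriptional cyclins and CDKs 8 of 14 (57.1%, −1.02). The share over all genes was 32.7%. PCF11, which ends transcription, had 417 reads in AZ-5576 and 1954 in DMSO (19.9%). Mediator, which links activators to polymerase, had 13 of 29 lower (44.8%). The lowest was MED18, with 38 reads in AZ-5576 and 493 in DMSO (7.18%). The core subunits of polymerase II were less affected, with 2 of 11 lower (18.2%) and a median of −0.39. The largest subunit gene POLR2A kept 46.1% (765 reads in AZ-5576, 1548 in DMSO). The BET gene BRD2 kept 33.9% (2644 in AZ-5576, 7272 in DMSO), with labelled RNA at 103%.

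Zinc finger genes named by number, most of them KRAB repressors, were the largest list. Of 320 tested members 229 were lower (71.6%, against 32.7% of all genes) and 0 higher. Some smaller lists had a larger share lower, such as the GADD45, BTG and SERTAD genes (90.9%) and the NF-kB genes (87.5%). Their median log2 ratio was −1.46 in total RNA, −0.03 in labelled RNA and −2.10 in unlabelled RNA, so the median loss lay in unlabelled RNA. Labelled RNA was nonetheless lower for 48 of the 320 and higher for 33. Over all 11797 genes it was lower for 671 (5.69%) and higher for 1038 (8.8%). ZNF280A had 26 reads in AZ-5576 and 369 in DMSO (6.57%). Histone methyltransferases and demethylases had 19 of 38 lower, with a median of −0.99.

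Cell cycle lists lay around the 32.7% of all genes called lower. Of 30 mitosis genes 14 were lower (46.7%), with a median of −0.98. Of 36 replication genes 9 were lower (25%), with a median of −0.65 that is close to all genes. Of 12 genes of G1 cyclins, their kinases and inhibitors 4 were lower (33.3%, −0.64). The differences between these lists were not tested. PLK1, the mitotic kinase, had 3546 reads in AZ-5576 and 13187 in DMSO, or 25.1%. AURKA, the kinase of centrosomes, had 621 in AZ-5576 and 2731 in DMSO (21.2%). CDC6, which loads the replicative helicase, was the lowest named replication gene at 16.9% (104 reads in AZ-5576, 573 in DMSO). Splicing regulators had 6 of 29 lower (20.7%) with a median of −0.59. CLK4, a kinase of SR proteins, was at 11.9% (28 reads in AZ-5576, 219 in DMSO).

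Smaller groups ranged widely. Krüppel-like factors had 4 of 6 lower (66.7%, median −1.39), against 32.7% of all genes. The ZFP36 family with other AU-rich element binders had 3 of 8 lower (37.5%, −0.87), near that share. Well-known long noncoding RNAs had 3 of 12 lower (25%, −0.41). NEAT1, the scaffold of paraspeckles, was at 47.2% (478 reads in AZ-5576, 943 in DMSO). Polyadenylated histone genes had 3 of 14 lower (21.4%, −0.17). The variant histone gene H3-3B was at 35.4% (4684 reads in AZ-5576, 12317 in DMSO). Of 3 tested small nuclear RNA genes 0 were lower and 1 was higher (0.47).

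Ribosome biogenesis and mRNA decay genes sat near the median of all genes. Nucleolar and biogenesis genes had 11 of 38 lower (28.9%, median −0.77), and the decay machinery 18 of 51 (35.3%, −0.76). Both shares were near the 32.7% of all genes. RRS1, a ribosome assembly factor, had 133 reads in AZ-5576 and 943 in DMSO (13.1%). The hosts of small nucleolar RNAs had 6 of 20 lower (30%, −0.56), which is also near that of all genes. SNHG12 was at 20.3% (553 reads in AZ-5576, 2533 in DMSO). Sterol synthesis genes had 5 of 21 lower (23.8%, −0.27).

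The long-lived mRNAs of core metabolism and translation were near their DMSO level, while 32.7% of all genes were called lower. Of 83 cytosolic ribosomal protein genes 0 were lower and 0 higher, with a median of −0.05. The paralogue RPL22L1 was the lowest of them with enough reads, at 60.9% (898 reads in AZ-5576, 1374 in DMSO). Nuclear genes of oxidative phosphorylation had 2 of 81 lower (median −0.11), glycolytic enzymes 2 of 19 (−0.14) and proteasome subunits 1 of 31 (−0.40). Mitochondrial ribosomal protein genes were between, with 11 of 77 lower and 1 higher (−0.44). MRPL17 stood apart in that group at 9.66% (37 reads in AZ-5576, 357 in DMSO).

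The 11 mRNAs of the mitochondrial genome had 0 members lower and 0 higher, with a median of 0.02. They were not uniform, and ranged from a log2 ratio of −0.98 (MT-CO1) to 0.52 (MT-ND3). MT-ND6 was at −0.62 and MT-ND4 at 0.45. MT-ND2 had 194427 reads in AZ-5576 and 177375 in DMSO, or 102% (101% to 103%). The median labelled share of these mRNAs was 1.49% in AZ-5576 and 1.43% in DMSO, so their pools carried little label and say little on decay. Reads of mitochondrial genes were 8.14% of the AZ-5576 library and 5.88% of the DMSO library.

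These directions depend on the fly scale. TMM scaling over human genes adds 0.62 to every log2 ratio and turns 14 of 44 list medians above 0 (BCL2, haem, polymerase II, sterol, glycolysis, splicing, nucleolar RNA hosts, long noncoding RNAs, histones, proteasome, cytosolic and mitochondrial ribosomal proteins, oxidative phosphorylation and K562 markers). The medians of the inducible, ZNF, mitosis, P-TEFb and erythroid factor groups stayed below 0 under it. The order of groups is the same under any scale.

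Few genes were higher. CCNP, a cyclin-like gene, had 152 reads in AZ-5576 and 4 in DMSO, 35.4-fold higher (13.6 to 132). APOA1, an apolipoprotein gene, had 123 reads in AZ-5576 and 4 in DMSO, 28.7-fold higher (10.9 to 107). HBB, the adult β-globin gene, had 204 reads in AZ-5576 and 6 in DMSO, 31.7-fold higher (14.3 to 87.4). Some of its reads could be shared with the related gene HBD, which had a log2 ratio of −0.19. CCNP, APOA1 and HBB were all nearly silent in DMSO. Almost none of these reads carried label, with 1 labelled read of CCNP, 0 of APOA1 and 11 of HBB in AZ-5576. The proteoglycan gene CSPG5 (233 reads in AZ-5576, 24 in DMSO) and the matrix gene CCDC80 (161 and 12) followed. RNVU1-25, a variant copy of U1 small nuclear RNA, had 291 reads in AZ-5576 and 30 in DMSO, 9.04-fold higher (6.20 to 13.6), and RNU6-918P, a U6 copy, had 106 and 8.

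The level of CCNP was 24.2, 104 and 132 reads per 1000000 fly reads at 2, 4 and 8 h in AZ-5576, against 4.1, 2.9 and 4.0 in DMSO. RNVU1-25 stood at 181, 198 and 425 in AZ-5576, against 31.5, 21.9 and 25.5 in DMSO. Both were above DMSO at every time, which most of the 122 higher genes were not. Of the 122, 64 were above DMSO at 2 h, 76 at 8 h and 51 at both times. Of the 122 higher genes 50 were protein coding and 44 were pseudogenes, and 30 had at least 100 reads in AZ-5576. JQ1 at 4 h, set against the same DMSO library, was also at least 2-fold higher for 75 of them (61.5%). Over all 11797 genes JQ1 was so for 317. Against the mean of DMSO at 2 and 8 h, 40 of the 122 stayed at least 2-fold higher in AZ-5576.

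RPS24P6 shows the parting of libraries described above. It had 10468 reads in AZ-5576 and 471 in DMSO, 20.7-fold higher. Its level was 10283, 7130 and 268 reads per 1000000 fly reads at 2, 4 and 8 h in AZ-5576, and 9739, 344 and 240 in DMSO, with 8528 at 0 h. In JQ1 it was 9365, 7219 and 242. The DMSO 4 h library was thus like the 8 h libraries and the AZ-5576 4 h library like those of 0 and 2 h. RPL38P5 parted the same libraries in the other direction, with 21.1 in AZ-5576 and 190 in DMSO at 4 h. Without pseudogenes the counts at 4 h were 3746 lower and 78 higher.

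Genes that lose their label fast in DMSO were lower at 4 h. The speed of loss was read from the DMSO library at 8 h and the 0 h library, which the 4 h comparison does not use, for 7531 genes with at least 50 labelled reads at 0 h, split into 5 groups of equal size. Growth during the chase also dilutes label. In the fastest group a median of 9.69% of the label was left and 908 of 1507 genes (60.3%) were at least 2-fold lower in AZ-5576. In the slowest group 69.7% of the label was left and 166 of 1506 were lower. The groups between followed in order, at 38.8%, 27.8% and 17.9%. The median log2 ratios of the groups ran from −1.18 in the fastest through −0.85, −0.68 and −0.52 to −0.29 in the slowest. Across these genes, which are not independent, the correlation of label left with the total ratio was 0.470 (Spearman) and 0.481 (Pearson). The Spearman value was 0.474 for the unlabelled ratio and −0.042 for the labelled ratio, so the labelled ratio did not follow label loss.

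Some genes went against this order. TAF1, the largest subunit of the TFIID complex, had 115% of its label left in DMSO but only 15.8% of the DMSO level at 4 h (310 reads in AZ-5576, 1824 in DMSO). PUM3, a nucleolar RNA-binding protein, had 87.6% left and 66 reads in AZ-5576 against 430 in DMSO (14.3%). NFIA, a transcription factor, had 15.1% left and yet 597 reads in AZ-5576 and 337 in DMSO (165%).

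The deepest losses were in genes with few exons. Exons were counted in 1 main transcript for each of 9770 protein-coding genes. Of 175 genes with 1 exon 9.71% were at least 8-fold lower, and of 981 genes with 2 to 3 exons 8.05%. With 4 to 8 exons this share was 1.66% of 3427 genes, with 9 to 15 exons 0.372% of 2954, and with 16 or more 0.134% of 2233. At 2-fold the shares over these classes were 57.7%, 49.7%, 29.3%, 31.5% and 38.9%, so genes with the most exons were again somewhat more often lower. Genes with 3 exons or fewer made up 57.5% of the 167 coding genes in the class of 8-fold losses and 11.8% of all.

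Exon classes were counted within label loss only for the group with the slowest loss, described above, and not for the other groups. In that group genes with more exons were more often at least 2-fold lower. The shares were 4.08% of 98 genes with 3 exons or fewer, 5.12% of 547 with 4 to 8 and 21.3% of 611 with more. In each of these classes 0 genes were at least 8-fold lower. Gene length, function and decay go together in these classes, and their separate parts were not tested.

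The nonamer TTATTTATT, a stricter form of the AU-rich element, was searched on the transcript strand in 9533 3′ UTRs of at least 50 bases. Of genes with none 34.1% of 8744 were at least 2-fold lower, with 1 it was 42.8% of 610, and with 2 or more 48.6% of 179. UTR length moves with the count, with medians of 973, 2726 and 4041 bases. In UTRs shorter than 500 bases 44.2% of 43 genes with the nonamer and 24.7% of 2684 without it were lower. In UTRs of 3000 bases or more the shares were 42.2% of 384 with it and 40.8% of 1299 without.

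**Figure D3:**
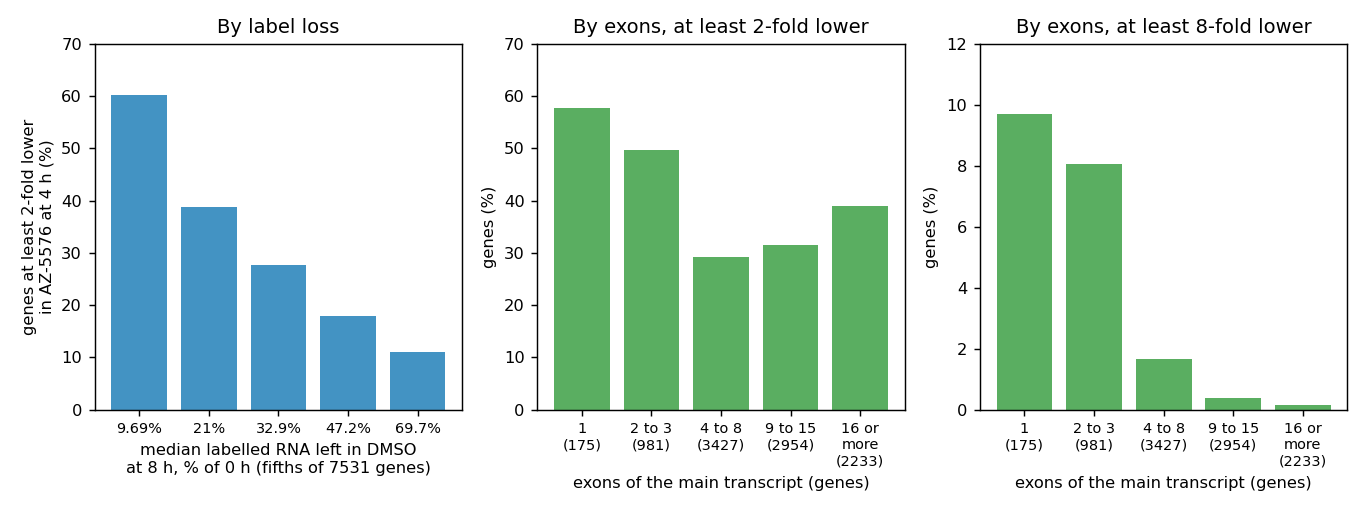
Share of genes (vertical axes, %) at least 2-fold lower in AZ-5576 than in DMSO at 4 h by label loss in DMSO (left, 5 groups of equal size, 60.3% in the fastest and 17.9% in the group next to the slowest) and by exon number (middle), and at least 8-fold lower by exon number (right, 9.71% with 1 exon to 0.134% with 16 or more). Numbers of genes stand in brackets.

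The libraries at 2 and 8 h stand apart from the 4 h comparison and place it in time. Over all genes the median log2 ratio was −0.25, −0.67 and −1.63 at 2, 4 and 8 h. Of the 3859 genes lower at 4 h, 3441 (89.2%) were below DMSO at 2 h and 721 (18.7%) at least 2-fold, against 75.4% and 9.30% of all genes. At 8 h 3826 (99.1%) were below DMSO and 3728 (96.6%) at least 2-fold, against 11086 of the 11797 genes and 71.3%. Genes differed in when they went. SOCS3 had 2 reads in AZ-5576 and 156 in DMSO at 2 h already, and JUNB was at 12.8% of the DMSO level. For MYB the values at 2, 4 and 8 h were 100%, 25.6% and 7.72% of the DMSO level. GATA1 went more slowly, with 109%, 80.1% and 28.1%.

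The 0 h library shows how much of a gene's difference came from DMSO. IER5 stood at 254, 33.4 and 24.5 reads per 1000000 fly reads at 2, 4 and 8 h in AZ-5576, and at 765, 992 and 1396 in DMSO, with 431 at 0 h. MYB stood at 1044, 494 and 235 in AZ-5576 and at 1041, 1935 and 3039 in DMSO, with 901 at 0 h. In both genes AZ-5576 was below 0 h and DMSO above it by 4 h. POLR2A was called lower against DMSO, but against the 0 h library its log2 ratio was 0.11. JQ1 did not follow AZ-5576 everywhere, with 2030, 2760 and 4008 for IER5 at 2, 4 and 8 h.

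**Figure D4:**
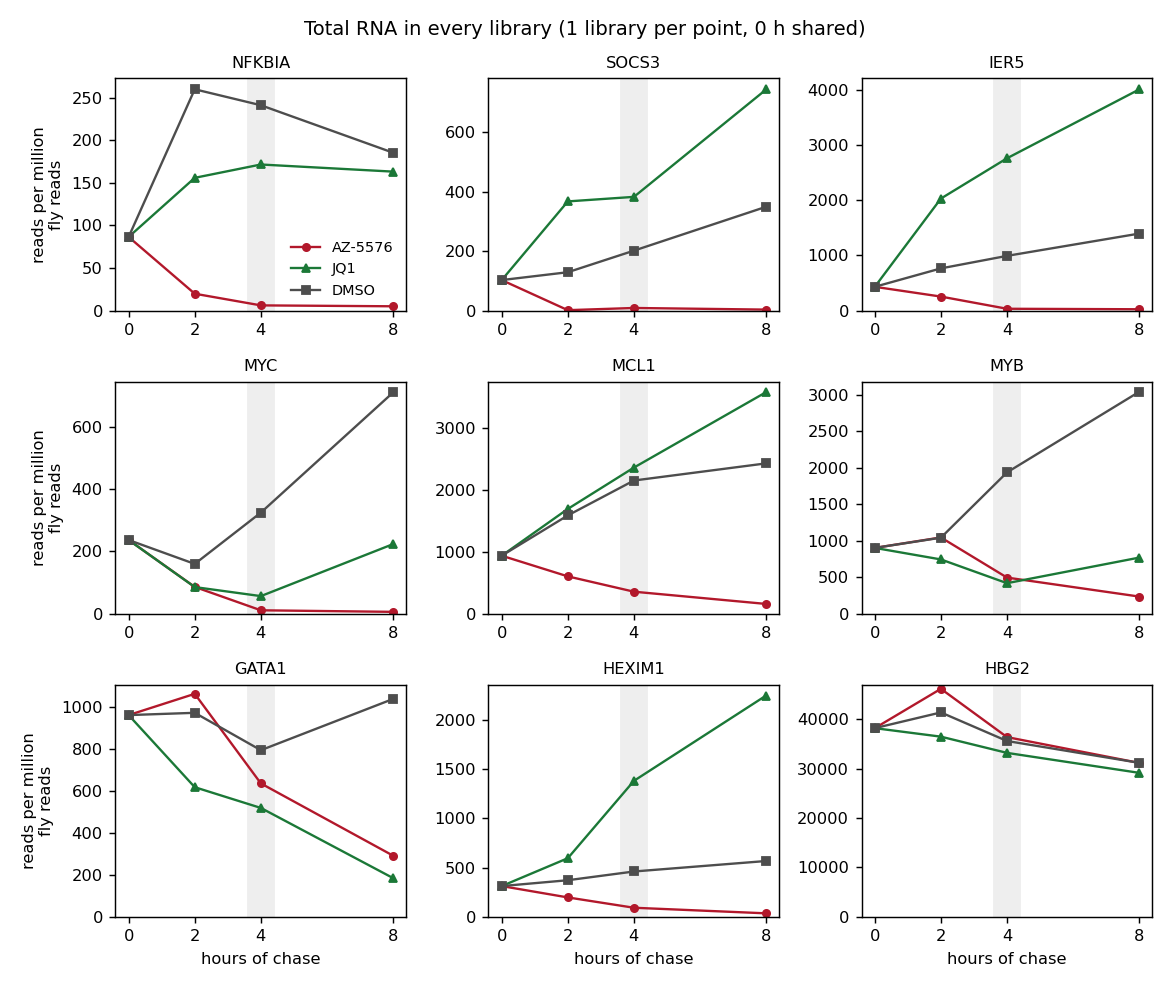
Total RNA (reads per 1000000 fly reads) against hours of chase for 9 genes in AZ-5576, JQ1 and DMSO, 1 library per point with a shared 0 h point and the 4 h point shaded. AZ-5576 is below DMSO at 4 h in all but HBG2, where the arms run together (36382 in AZ-5576 and 35591 in DMSO at 4 h).

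A test was possible on the libraries that the 4 h comparison did not use. Straight lines over the hours of chase were fitted to the 7 libraries of 0, 2 and 8 h with edgeR's quasi-likelihood test, with 1 slope for each arm and fly totals as the scale. The fit leaves 3 residual degrees of freedom, and its p-values measure the scatter of single libraries about the lines. The slope of total RNA was lower in AZ-5576 than in DMSO for 8197 of 11797 genes (69.5%) and higher for 64 (0.543%) at an adjusted p of 0.05. With TMM scaling over human genes it was lower for 2683 and higher for 2027. A lower slope can hold an increase in DMSO, where 8329 of the 11797 genes were above 0 h at 4 h. Of the 3859 genes lower at 4 h, 3626 were among the 8197, of which they made up 44.2%. Of the 204 genes with 8-fold losses 198 (97.1%) were. Of the 7816 genes within 2-fold at 4 h, 4564 (58.4%) had a lower slope as well. A lower slope does not mean that a gene was 2-fold lower at 8 h.

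The 12 lowest and 8 highest genes were named only if their ratios had the same sign at 2 and 8 h. The slope test uses those libraries, so their passing was partly fixed by that choice. All 12 lowest genes passed in this test. IER5 fell by 0.73 log2 units per h relative to DMSO (edgeR adjusted p = 2.99e-36), and SOCS3 by 0.97 (edgeR adjusted p = 1.43e-32). GATA1, within 2-fold at 4 h, fell by 0.21 (edgeR adjusted p = 4.35e-05). HBG2 had a slope difference of 0.01 with an edgeR adjusted p of 0.910, and ACTB, EEF1A1, GAPDH, MT-CO1 and RPLP0 did not pass either. Of the 8 highest genes 7 had a higher slope in AZ-5576, all but RPS24P6. CCNP, APOA1 and RNU6-918P reached the minimum of 20 reads only through the AZ-5576 libraries, so their calls are not independent of that filter. Over all genes 69.5% had a lower slope in AZ-5576. Among the lists 294 of 320 zinc finger genes and 22 of 22 erythroid and leukaemia factors had a lower slope in AZ-5576. So did 11 of 11 GADD45, BTG and SERTAD genes, against 4 of 83 ribosomal protein genes and 0 of 9 globins. Of the globins 1 had a higher slope.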

How the data were processed

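The authors deposited raw counts of reads per gene, 1 table each for all human reads, human reads named nascent and fly reads, and these counts were used as deposited. The tools named are Trim Galore 0.6.5, bedtools and bcl2fastq 2.17.1.14, and the builds are dm6 and hg38, per the submitters' processing notes. The aligner, counter, annotation and the rule that named a read nascent are not given in the sources used here. Libraries were QuantSeq 3′ end libraries after iodoacetamide, per the labels' protocols.

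Ratios used a pseudocount of 0.5 reads and fly totals as the scale. Unlabelled reads are total minus nascent reads. Intervals are exact (Clopper-Pearson, 95%). Symbols matched for 10995 tested genes, and 11695 were in GENCODE 29. Genes with near-identical copies are uncertain. The slope test used edgeR 4.0.16 in R 4.3.3 with Benjamini-Hochberg adjustment over all 11797 genes, and the scripts were tested on simulated data. DESeq2 1.42.0, other scales, minimums, pseudocounts and references were tried as alternatives.

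The members and gene lists were chosen with earlier results of these data known. Named genes are the 12 lowest and 8 highest total ratios and 5 each way in labelled RNA (at least 100 reads), up to 2 each way per list, and a panel. The 12 lowest and 8 highest also had to have the same sign at 2 and 8 h. ATF4, BTG1, FOS, IER2, IER3, MT-ND2, NFIA, PIM3, PUM3, RPL38P5, SOCS1 and TAF1 were named after their values were seen. RN7SK of that panel has no value here, and CDK9 had too few reads. Some named genes are not reported here.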

Additional observations from a re-analysis of the deposited data

How the results depend on the processing

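Called genes numbered as follows under each alternative. With TMM over human genes as the scale, 1456 genes were lower and 497 higher in total RNA, 317 and 3351 in labelled RNA, 3761 and 434 in unlabelled RNA, with median log2 ratios of −0.047, 0.75 and −0.53. With the sum of human reads they were 2303 and 253, 418 and 1842, and 240 higher in unlabelled RNA (medians −0.33, 0.47 and −0.81). A minimum mean of 100 reads gave 2534 and 17 in total, 199 and 279 in labelled RNA, and 25 higher in unlabelled RNA. With no minimum there were 8012 and 3537 in total, 2285 and 3270 in labelled, and 10901 and 3128 in unlabelled RNA (medians −0.10 in labelled and −0.95 in unlabelled RNA). A pseudocount of 5 gave 76 higher in total, 338 lower and 409 higher in labelled and 84 higher in unlabelled RNA. Requiring the whole interval past 2-fold gave 2173 and 33 in total, 65 and 44 in labelled RNA, and 36 higher in unlabelled RNA. Against the mean of DMSO at 2 and 8 h, 68 were higher in total and, with 884 lower, 471 in labelled and 81 in unlabelled RNA (medians −0.82, −0.012 and −1.32). Against the 0 h library there were 1679 and 281, 2859 and 347, and 1453 and 808 (medians −0.36, −0.48 and −0.24). Without pseudogenes, an alternative chosen after seeing the data, 78 were higher in total and 78 in unlabelled RNA. Fly TMM factors kept all counts within 1.5 times. In the slope test TMM over human genes gave 4710 genes (2683 lower, 2027 higher) in place of 8261, and DESeq2 gave 8053. Leaving out the AZ-5576 2 h library gave 8761.

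Of 199 named genes 7 reversed, all against the 0 h library: RPS24P6 (−0.26), RPL35AP33 (−0.39), RPL31P31 (−0.10), SKIL (0.025), POLR2A (0.11), POLR2B (0.63) and CDK19 (0.30). The cause was not tested. No paired analysis was possible because each condition has 1 library and no replicate number is shared. A fit paired by time would average over times and was not run. Genes with under 100 reads have wide intervals, and the 1 DMSO library at 4 h is part of every ratio at that time.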
